A study of Homo sapiens with 6 samples.

Results

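The small proline-rich protein (SPRR) genes, involucrin and the transglutaminases were followed in SCC4, an established human cell line from a squamous carcinoma of the tongue. The 10 genes were chosen by name, SPRR1A, SPRR1B, SPRR2A, SPRR2D, SPRR2E and SPRR3 as SPRR genes, IVL for involucrin, and TGM1, TGM3 and TGM5 as transglutaminases. Of the 10, 9 had a row among the 16536 genes of the expression table, and TGM3 was not analysed here. There were 3 libraries of parental SCC4 cells, grown attached to the dish, and 3 libraries of sphere cells, obtained from the same line in suspension culture and described by the submitters as cancer stem cells. No other treatment or genetic change is given for either group, both come from this 1 line, and no label tells if the replicates came from separate cultures. Every p-value here is set against the spread of these 6 libraries alone, part or all of which may be technical.

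The cornified envelope is the protein shell that replaces the plasma membrane of a keratinocyte as it finishes differentiating. Involucrin and a scaffold of plakin proteins are laid down first under the membrane, and SPRR proteins, loricrin and other precursors are then cross-linked to it by transglutaminases, which join glutamine to lysine side chains. SPRR proteins consist of glutamine- and lysine-rich ends around short proline-rich repeats, and in squamous epithelia such as the oral mucosa they are abundant in the suprabasal layers and respond to stress and injury. Most of these precursors are encoded side by side in the epidermal differentiation complex on chromosome 1.

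Expression is given in the units of the authors' table, which are per transcript length on a TPM-like scale. The low values lay on steps of nearly 1 constant in each library, between 0.8864 units in parental replicate 1 and 1.136 units in sphere replicate 2, so a value near 1 unit is 1 rounding step. The column totals ranged from 885258 to 1134102 units and follow from the scaling the authors applied, which leaves the read depth unknown. Libraries of a group were alike, with Pearson's r over tested genes of 0.973 to 0.977 among parental and 0.982 to 0.993 among sphere libraries, against 0.931 to 0.95 between groups. The 9 squamous markers checked, among them KRT5, KRT14 and TP63, were all present, summing to between 8187 and 8913 units in parental and between 28208 and 29871 units in sphere libraries. Most of this difference was KRT5 and KRT14, at 2262 and 1490 units on average in parental and 11779 and 10484 units in sphere cells. In the test described below 7 of the 9 rose, CDH1 fell, from 153 to 108 units, and DSG3, at 77.8 and 78.8 units, did not pass. Of all tested genes, 25.8% rose and 22.9% fell. Markers of red-cell precursors cut across the groups: 8 of 14 had a row, and they summed to 1909.5, 1297.1 and 1218.9 units in parental replicates 2 and 3 and sphere replicate 2, against 0 to 1.2 units in the other 3 libraries. Of 7 fibroblast markers 3 had a row, summing to 7.5 to 9.8 units in parental and 25.2 to 30.2 units in sphere libraries, and of 5 leukocyte markers 2 had a row, summing to 13.2 to 16.1 and 28.9 to 29.5 units. Most of the fibroblast sum in sphere cells was lumican (LUM, 18.3 to 23.8 units) and most of the leukocyte sum was CD14, while PTPRC, the common leukocyte antigen gene, was not analysed here. The part of these markers in the results below was not tested.

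Most of the envelope genes were higher in sphere cells, led by SPRR1A, at 58.1 ± 18.5 units in parental and 430 ± 34.5 units in sphere cells (SD, n = 3 each), and SPRR2E, at 1.26 ± 0.565 and 11.2 ± 0.914 units. With limma on log2(value + 1) across 15034 genes, and Benjamini-Hochberg adjustment, SPRR1A, SPRR1B, SPRR2E, SPRR3, IVL and TGM1 rose, 0 fell, and SPRR2A, SPRR2D and TGM5 did not pass an adjusted p of 0.05. All 9 genes passed the filter of 1 unit in at least 3 libraries, but only SPRR1A, SPRR1B, SPRR2D and TGM1, 4 of the 9, would have passed it on the parental libraries alone. The other 5, SPRR2A, SPRR2E, SPRR3, IVL and TGM5, needed sphere libraries to pass, so the 6 of 9 is only a description of these rows. SPRR3 was at 0 in every parental library. TGM5 had no parental library at 1 unit but stood at 1 rounding step in parental replicates 1 and 3. Of all tested genes, 48.7% were called, of which those that rose were 25.8% and those that fell 22.9% of all tested. Counted in rounding steps, which removes the scaling between libraries, every sphere value lay above every parental value for 5 of the 9 genes, SPRR1A, SPRR1B, SPRR2E, SPRR3 and TGM1, and for 17.1% of all tested genes. The median log2 difference of the 9 genes was 0.90, beside 0.04 for all tested genes. This median and the count in steps also include genes that needed sphere libraries to pass the filter, so they too are only a description. With every library scaled to the same total, the median of all tested genes was -0.09, 37.7% of called genes were higher instead of 53%, and IVL and TGM1 lost their calls. In cultured cells as in tissue, a change in the share of differentiating cells and a change in RNA per cell cannot be told apart in these bulk libraries.

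**Figure D1:**
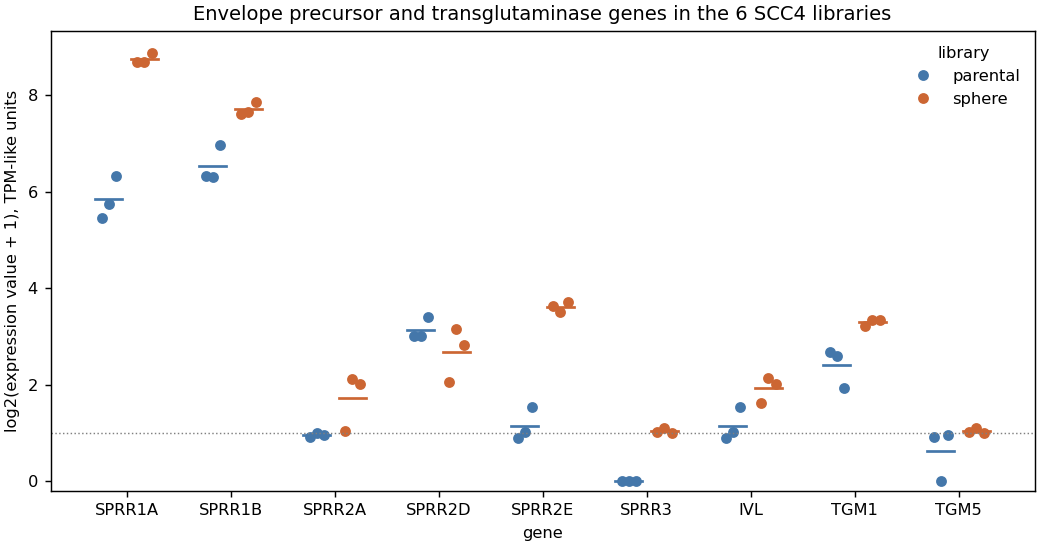
Expression of the 9 genes as log2(value + 1) in TPM-like units, with 1 point per library (3 parental, 3 sphere) and a bar at each group mean on this scale; the dotted line marks a value of 1 unit, about 1 rounding step. SPRR1A and SPRR1B lie far above the rest in both groups, and SPRR2E is the low gene with the widest gap between groups, 1.26 against 11.2 units on average.

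SPRR1A (ENSG00000169474) and SPRR1B (ENSG00000169469) encode closely related envelope precursors, both also known as cornifins. SPRR1A was at 43.1, 52.4 and 78.7 units in parental replicates 1 to 3 and at 408, 412 and 470 units in sphere replicates 1 to 3. The groups did not overlap, and parental replicate 3 was the highest of its group. The ratio of group means was 7.41, and on the log2(value + 1) scale the difference was 2.91 with an SE of 0.217 (limma adjusted p = 0.000184), the 70th largest rise among all tested genes. SPRR1B was at 78.6, 77.7 and 124 units in parental and at 193, 201 and 232 units in sphere replicates 1 to 3. Again the groups did not overlap and parental replicate 3 was the highest of its group. SPRR1B rose by a log2 difference of 1.18 with an SE of 0.196 (limma adjusted p = 0.00377), a ratio of means of 2.23. Without the 3 libraries that carried red-cell transcripts the log2 differences were 3.32 and 1.42; this leaves 1 parental library against 2 sphere libraries, with the lone parental library assumed to vary like the sphere libraries.

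The balance of this pair shifted. SPRR1A made up 35.4%, 40.3% and 38.8% of the summed SPRR1A and SPRR1B level in parental replicates 1 to 3 and 67.9%, 67.2% and 67% in sphere replicates 1 to 3. SPRR1B was the higher gene in every parental library and SPRR1A in every sphere library. The log2 difference between SPRR1A and SPRR1B moved from -0.69 ± 0.151 to 1.04 ± 0.03 (SD, n = 3 each), a shift of 1.73 (two-sided exact permutation test p = 0.1, the smallest that 3 against 3 libraries allow, and 0.1 after adjustment over the 2 paralog pairs compared). The pairs were chosen after their values were seen. The sum of both genes rose from 151.5 ± 44.6 to 638.9 ± 54.8 units, a ratio of 4.22, given without a test.

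Because the 2 genes are so alike, their coding sequences are shown to let a reader judge what a short read can tell apart. In GENCODE 29 on GRCh38 both are 270 bases in 1 block, SPRR1A at chr1:152985231-152985500, plus strand, and SPRR1B at chr1:153032346-153032615, plus strand. Capitals mark the 10 bases that differ between them in an alignment without gaps, in which 260 of 270 bases (96.3%) are identical.
SPRR1A: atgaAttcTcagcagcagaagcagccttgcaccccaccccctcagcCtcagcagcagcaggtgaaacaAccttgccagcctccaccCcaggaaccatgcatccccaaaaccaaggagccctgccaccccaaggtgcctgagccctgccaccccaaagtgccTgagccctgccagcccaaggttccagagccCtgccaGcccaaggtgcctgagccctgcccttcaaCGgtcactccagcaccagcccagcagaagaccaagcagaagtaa
SPRR1B: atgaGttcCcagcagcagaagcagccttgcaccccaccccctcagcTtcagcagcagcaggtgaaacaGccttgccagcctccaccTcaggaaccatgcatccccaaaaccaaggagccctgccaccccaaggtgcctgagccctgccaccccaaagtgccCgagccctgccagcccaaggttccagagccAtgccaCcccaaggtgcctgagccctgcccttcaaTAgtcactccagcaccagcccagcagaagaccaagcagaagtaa
The longest run shared by the coding sequences is 74 bases, longer than a read. The libraries were read in single reads of 50 bases. Of the 221 windows of 50 bases in the SPRR1A transcript, 25 (11.3%) also occur in SPRR1B, and these are 4.4% of the 571 windows of the SPRR1B transcript. The annotated SPRR1A transcript holds no untranslated bases, whereas that of SPRR1B is 620 bases long, so the level of SPRR1A relative to SPRR1B within a library depends on the gene model used. How reads matching both genes were assigned is not given in the sources used here.

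The SPRR2 genes encode shorter envelope precursors of very similar sequence, and they did not move alike. SPRR2E (ENSG00000203785) was at 0.857, 1.01 and 1.90 units in parental replicates 1 to 3, that is 1, 1 and 2 rounding steps, and at 11.4, 10.3 and 12.1 units in sphere replicates 1 to 3, that is 11, 9 and 12 steps. Sphere libraries were therefore all well above the parental ones. The log2 difference was 2.47 with an SE of 0.183 (limma adjusted p = 0.000178). SPRR2D (ENSG00000163216), the main SPRR2 transcript of parental cells, was at 7.04, 7.06 and 9.49 units there and at 3.14, 7.83 and 6.05 units in sphere replicates 1 to 3. These values overlap, with sphere replicate 1 the lowest of all 6 libraries, and SPRR2D did not pass the test (log2 difference -0.47 with an SE of 0.293, limma adjusted p = 0.241). SPRR2A (ENSG00000241794) was at 0.873, 1.01 and 0.941 units in parental and at 1.05, 3.36 and 3.02 units in sphere replicates 1 to 3. In rounding steps these are 1, 1 and 1 against 1, 3 and 3, so sphere replicate 1 stood at the parental level. SPRR2A did not pass the test (log2 difference 0.77, limma adjusted p = 0.0784), nor did it under 16 of 18 alternatives. Among these were the fits without sphere replicate 2 (limma adjusted p = 0.196) and without sphere replicate 3 (0.203). It passed without sphere replicate 1 (1.11, limma adjusted p = 0.0019) and with sphere replicates 1 and 3 averaged (0.91, limma adjusted p = 0.0153). Both settings take away the low sphere replicate 1 as a library of its own, so they add no support.

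SPRR2E made up 9.8%, 11.1% and 15.4% of the summed SPRR2 level in the parental libraries and 73.1%, 47.9% and 57.1% in the sphere libraries. The log2 difference between SPRR2E and SPRR2D moved from -1.99 ± 0.131 to 0.94 ± 0.615 (SD, n = 3 each), a shift of 2.93 (two-sided exact permutation test p = 0.1, again the smallest possible). The SPRR2 sum rose less than SPRR2E alone, from 10.06 ± 1.97 to 19.4 ± 3.33 units, a ratio of 1.93 without a test. These sequences are hard to separate. The coding sequences of SPRR2D and SPRR2E are identical at 216 of 219 bases, and those of SPRR2A and SPRR2E at 214 of 219. Of the 50-base windows of each gene's annotated transcripts, 32.7% for SPRR2A, 19.3% for SPRR2D and 23.4% for SPRR2E also occur in another gene, in each case other SPRR2 genes. SPRR2B, SPRR2F and SPRR2G were not analysed here, so a read from them could also have been counted under the 3 listed genes.

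**Figure D2:**
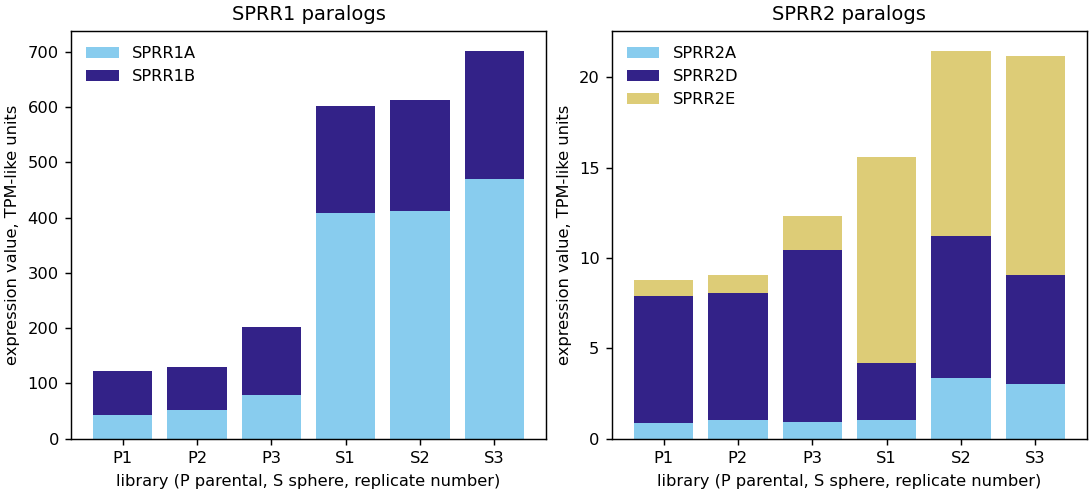
Stacked bars of the expression value of each SPRR1 gene (left) and SPRR2 gene (right) in TPM-like units, with 1 bar per library (P1 to P3 parental, S1 to S3 sphere). SPRR1A takes 35.4% to 40.3% of the SPRR1 bar in parental and 67% to 67.9% in sphere libraries, and SPRR2E takes 9.8% to 15.4% and 47.9% to 73.1% of the SPRR2 bar.

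SPRR3 (ENSG00000163209), the SPRR member with the longest coding sequence, 510 bases, and a typical product of oral and oesophageal epithelium, was listed at 0 in all 3 parental libraries. It was at 1.04, 1.14 and 1.01 units in sphere replicates 1 to 3, which is 1 rounding step in each. It passed the test (limma adjusted p = 0.000306), but the call rests on a single step. SPRR5, which has the same 6 values as SPRR3, and SPRR4, at 0 in the parental libraries and at 3.08, 1.18 and 1.01 units in sphere replicates 1 to 3, passed it too (limma adjusted p = 0.000306 and 0.00833). These SPRR genes are thus listed at 1 to 3 steps in sphere libraries and at 0 in parental libraries. With values on rounding steps, a listed 0 may hide a level below 1 step, so presence and absence cannot be told apart here. When any sphere library was left out, SPRR3 no longer reached 1 unit in 3 libraries and was not tested. SPRR1A and SPRR1B together held 93.3% to 94.3% of the summed level of all 8 listed SPRR genes in parental and 96.1% to 96.7% in sphere libraries.

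IVL (ENSG00000163207), which encodes involucrin, the early glutamine-rich scaffold of the envelope, stayed low. It was at 0.857, 1.01 and 1.90 units in parental replicates 1 to 3, the same 3 values as SPRR2E, and at 2.08, 3.38 and 3.03 units in sphere replicates 1 to 3. Counted in steps these are 1, 1 and 2 against 2, 3 and 3, so the highest parental and the lowest sphere library stood on the same step. IVL rose by a log2 difference of 0.78 with an SE of 0.22 (limma adjusted p = 0.0297). The call ended without parental replicate 1 (adjusted p = 0.0847), parental replicate 2 (0.0726), sphere replicate 2 (0.0871) or sphere replicate 3 (0.0875), with quantile normalization (0.104) and with every library scaled to the same total (0.0633), and the log2 difference without the 3 libraries with red-cell transcripts, again with a lone parental library, was 0.92.

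TGM1 (ENSG00000092295), the membrane-bound keratinocyte transglutaminase that cross-links the envelope at the cell periphery, was at 5.36, 5.04 and 2.79 units in parental and at 8.28, 9.08 and 9.08 units in sphere replicates 1 to 3. The groups did not overlap, and parental replicate 3, the highest parental library for both SPRR1 genes, was the lowest for TGM1. TGM1 rose by a log2 difference of 0.90 with an SE of 0.206 (limma adjusted p = 0.0137), a ratio of means of 2. The call ended with every library scaled to the same total (adjusted p = 0.0514). The log2 difference was 0.66 when parental replicate 3 was left out and 0.60 when the 3 libraries with red-cell transcripts were. TGM5 (ENSG00000104055), a transglutaminase of the upper epidermis, was at 0.891, 0.0013 and 0.949 units in parental and at 1.04, 1.14 and 1.01 units in sphere replicates 1 to 3, or at most 1 step in any library, and it did not pass the test (limma adjusted p = 0.26). TGM2, the widely expressed tissue transglutaminase, was the other transglutaminase gene measured, of 6 looked for. TGM2 was at 3.51, 3.03 and 5.71 units in parental and at 21.7, 26 and 24.2 units in sphere replicates 1 to 3. It rose by a log2 difference of 2.33 with an SE of 0.2 (limma adjusted p = 0.000305), and in sphere cells its mean of 24 units was above the 8.81 units of TGM1, whereas in parental cells the ranges of TGM1 and TGM2 overlapped.

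In parental cells the order of mean levels was SPRR1B, SPRR1A, SPRR2D and TGM1, at 93.5, 58.1, 7.86 and 4.40 units, followed by IVL and SPRR2E at 1.26 units each, SPRR2A at 0.941, TGM5 at 0.614 and SPRR3 at 0. SPRR1B and SPRR1A overlapped in range there, as did the genes near 1 step, whereas SPRR2D lay above TGM1 in every library. In sphere cells the order was SPRR1A, SPRR1B, SPRR2E, TGM1, SPRR2D, IVL and SPRR2A, at 430, 209, 11.2, 8.81, 5.67, 2.83 and 2.48 units, with SPRR3 and TGM5 last at 1.06 units each. Each of the first 4 genes lay above the next without overlap, IVL overlapped with SPRR2D and with SPRR2A, and SPRR2A reached down to the single step of SPRR3 and TGM5.

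Since SPRR1A, SPRR1B, IVL and SPRR2A lie in the same gene cluster but stood at very different levels, the 250 bases before their start sites are shown, from RefSeq on GRCh38.p14, at chr1:152983831-152984080, plus strand for SPRR1A; chr1:153030953-153031202, plus strand for SPRR1B; chr1:152908296-152908545, plus strand for IVL; and chr1:153057513-153057762, minus strand for SPRR2A. Capitals mark matches to TGANTCA, the site of AP-1, the FOS and JUN family dimer, and to TATAAA, the TATA box, on either strand.
SPRR1A: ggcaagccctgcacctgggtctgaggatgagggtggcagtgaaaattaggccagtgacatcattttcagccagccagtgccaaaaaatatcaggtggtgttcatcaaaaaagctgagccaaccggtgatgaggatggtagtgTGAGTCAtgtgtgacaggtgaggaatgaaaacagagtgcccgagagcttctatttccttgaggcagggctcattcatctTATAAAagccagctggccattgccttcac
SPRR1B: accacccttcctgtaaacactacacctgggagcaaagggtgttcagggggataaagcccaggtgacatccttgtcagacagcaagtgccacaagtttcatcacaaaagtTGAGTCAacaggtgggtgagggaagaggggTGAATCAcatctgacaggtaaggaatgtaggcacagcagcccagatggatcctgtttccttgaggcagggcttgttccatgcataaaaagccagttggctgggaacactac
IVL: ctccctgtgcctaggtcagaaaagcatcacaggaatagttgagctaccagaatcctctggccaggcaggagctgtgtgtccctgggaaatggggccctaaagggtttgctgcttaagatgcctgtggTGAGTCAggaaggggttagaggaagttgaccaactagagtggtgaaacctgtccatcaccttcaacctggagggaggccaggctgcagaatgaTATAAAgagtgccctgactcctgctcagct
SPRR2A: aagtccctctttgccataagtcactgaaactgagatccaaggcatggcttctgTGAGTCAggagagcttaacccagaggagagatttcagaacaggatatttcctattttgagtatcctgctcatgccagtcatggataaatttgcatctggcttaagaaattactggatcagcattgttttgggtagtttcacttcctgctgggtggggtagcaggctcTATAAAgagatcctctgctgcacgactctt
Of the 10 genes, 7 had a promoter sequence in the table, and 5 of these, the 4 shown and SPRR3, held an AP-1 match, against 6.6% of 35116 promoter windows of this length. SPRR1B had 2 AP-1 matches, starting 141 and 111 bases before the start site, and the single match of SPRR1A starts 108 bases before it. TATAAA matched in 5 of the 7, among them SPRR1A, IVL and SPRR2A, and in 10.7% of all windows; SPRR1B and TGM5 had none. AGGAAG, a core of sites for ETS factors such as ELF3, matched in 4 of the 7 and in 28.7% of all windows. In IVL the AP-1 match shares 1 base with an AGGAAG match. SPRR4 and SPRR5 held no AP-1 match in this window. These matches are letters in a window and were not tested for binding.

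The SPRR genes and IVL are neighbours in the epidermal differentiation complex, taken here as the 63 protein-coding genes from S100A10 to S100A1 in RefSeq order, a set defined after the results were known. Of these, 29 were tested, 16 rose and only S100A10 fell, beside the 25.8% and 22.9% of all tested genes given above. Among the 11 SPRR genes of the complex, 8 were tested and 6 rose. Of these, 3, SPRR3, SPRR4 and SPRR5, were listed at 0 in every parental library and so passed the filter only through the sphere libraries. SPRR2E, and IVL beside the SPRR genes, also needed sphere libraries to pass. Of its 20 late cornified envelope (LCE) genes, products of the last differentiation stage, 2 had a row, and LCE3E and LCE5A were at 1.03 and 1.01 units in sphere replicates 1 and 3 and near 0 elsewhere, too low to be tested. Loricrin and filaggrin (FLG), the major late proteins of skin, were not analysed here, and the related trichohyalin (TCHH) and hornerin (HRNR) genes were at 1 to 2 steps or less and did not pass the test. The S100 genes, which encode small calcium-binding proteins, rose in 7 of 16 cases. PGLYRP3 and PGLYRP4, genes of peptidoglycan recognition proteins between loricrin and S100A9 in the complex and named after their values were seen, rose by log2 differences of 2.35 and 2.81.

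**Figure D3:**
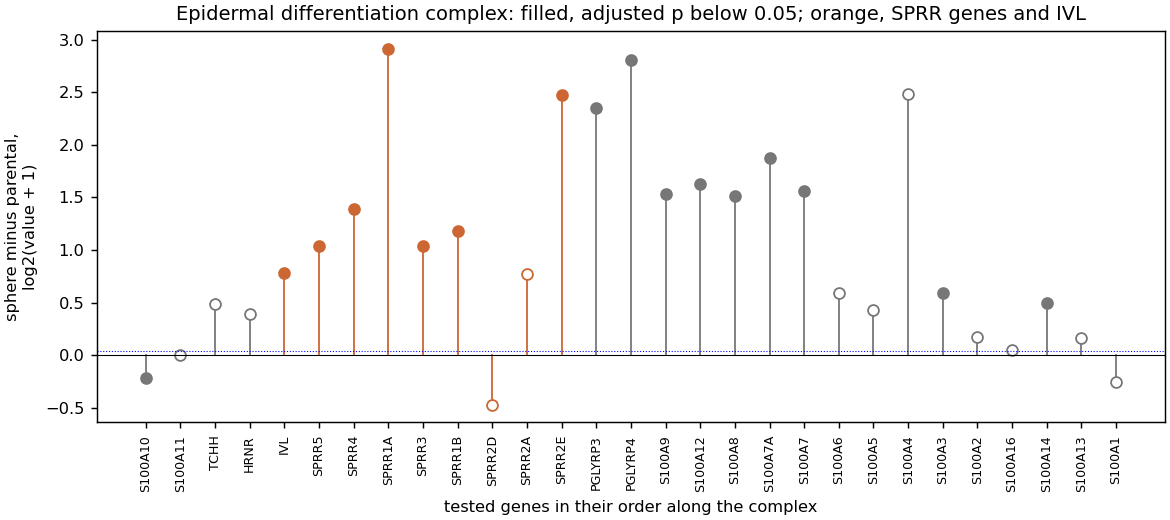
Sphere minus parental difference of log2(value + 1) for the 29 tested genes of the epidermal differentiation complex in their order on the chromosome (x axis, not to scale), with SPRR genes and IVL in orange, filled points at an adjusted p below 0.05 and a dotted line at the median of all tested genes, 0.04. SPRR1A has the largest difference, 2.91, and its neighbour SPRR3 and the SPRR2 genes spread from -0.47 for SPRR2D to 2.47 for SPRR2E.

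Of 11 tested genes for other proteins of the envelope, 6 rose and 4 fell, beside 25.8% and 22.9% of all tested genes, and their median log2 difference was 0.54, beside 0.04. The envoplakin gene EVPL was at 11.5, 12.1 and 12.3 units in parental and at 22.8, 25 and 24.2 units in sphere replicates 1 to 3 (log2 difference 0.95, limma adjusted p = 7.43e-05). Its partner periplakin, PPL, was at 158, 159 and 157 units in parental and at 80.6, 84 and 86.7 units in sphere replicates 1 to 3 (log2 difference -0.91, limma adjusted p = 2.75e-05). EVPL rose and PPL fell, with no overlap of groups in either gene. ANXA1, annexin A1, fell from 1886 ± 56.6 to 694 ± 10 units and SCEL, sciellin, from 20.5 ± 0.905 to 8.44 ± 0.564 units (SD, n = 3 each). The desmoplakin gene DSP, CSTA for cystatin A, PI3 for elafin, CNFN for cornifelin and KAZN for kazrin rose, by log2 differences of 0.90, 0.82, 1.26, 2.08 and 0.54, and S100A10 fell by 0.22 on the log2 scale. CNFN varied widely, at 2.56, 1.02 and 9.59 units in parental and at 12.46, 21.39 and 18.15 units in sphere replicates 1 to 3. Its log2 difference had an SE of 0.609 (limma adjusted p = 0.033). S100A11 did not pass the test.

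Genes that act on transglutaminases or on filaggrin were measured from lists of their own. Of 6 tested genes of transglutaminase processing, 3 rose and 2 fell, beside 25.8% and 22.9% of all tested genes, with a median log2 difference of 0.21, beside 0.04. PLAAT4, whose product binds and activates TGM1, was at 33, 27.2 and 21.7 units in parental and at 129, 118 and 112 units in sphere replicates 1 to 3 and rose by a log2 difference of 2.11 (limma adjusted p = 0.00016). CTSD, for cathepsin D, and CAPN1, for a calpain, rose by 1.36 and 0.58. CTSV, for cathepsin V, and CST6, which encodes a cystatin that inhibits it, fell by 0.86 and 1.17 on the log2 scale, and CTSL did not pass the test. Of 4 tested genes of filaggrin processing, 3 rose, beside 25.8% of all tested genes, but PADI3, CASP14 and PADI1 passed the filter only with the sphere libraries. The remaining gene, BLMH, did not need the sphere libraries and went the other way. BLMH was at 7.87, 8.08 and 14.27 units in parental and at 6.21, 6.80 and 6.05 units in sphere replicates 1 to 3. It did not pass the test (log2 difference -0.54, limma adjusted p = 0.0899). PADI3, a peptidylarginine deiminase, stood at 1 step in each parental library and at 23.8, 22.7 and 22.2 units in sphere replicates 1 to 3 (log2 difference 3.62, limma adjusted p = 2.29e-06). CASP14, the caspase of cornifying cells, had 0 in every parental library and stood at 4.16, 5.69 and 7.05 units in sphere replicates 1 to 3. PADI1 rose by a log2 difference of 1.30, a call that ended with a pseudocount of 0.1 (limma adjusted p = 0.0697).

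Of 15 tested genes of transcription factors with known roles at envelope genes, 7 rose and 4 fell, beside 25.8% and 22.9% of all tested genes, with a median log2 difference of 0, beside 0.04. Among AP-1 genes, FOS was at 5.32, 5.04 and 4.71 units in parental and at 105, 105 and 99.8 units in sphere replicates 1 to 3 (log2 difference 4.11, limma adjusted p = 1.97e-06). JUNB rose from 104 ± 1.75 to 542 ± 13 units (SD, n = 3 each) and FOSL2 by a log2 difference of 0.36, whereas FOSL1 and JUN fell by 0.80 and 0.58 on the log2 scale. JUND did not pass the test. The ETS factor gene ELF3 rose by a log2 difference of 1.23 and its relative EHF, at 254 and 245 units on average, did not pass the test. ZNF750, a factor of terminal epidermal differentiation, TP63, which maintains squamous identity, and GRHL1 rose by 1.20, 0.93 and 0.37. Counted in rounding steps, GRHL1 was at 15, 12 and 13 in parental and at 15, 14 and 18 in sphere replicates 1 to 3. FOSL2 was at 48, 43 and 44 steps in parental and at 51, 48 and 57 in sphere replicates 1 to 3. For neither gene did every sphere step lie above every parental step. KLF4, a barrier factor, and PRDM1 fell by 0.66 and 0.30 on the log2 scale, and OVOL1 and GRHL3 did not pass the test. PRDM1 stood at 3 rounding steps in each parental and at 2 in each sphere library, so its call rests on a single step.

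**Figure D4:**
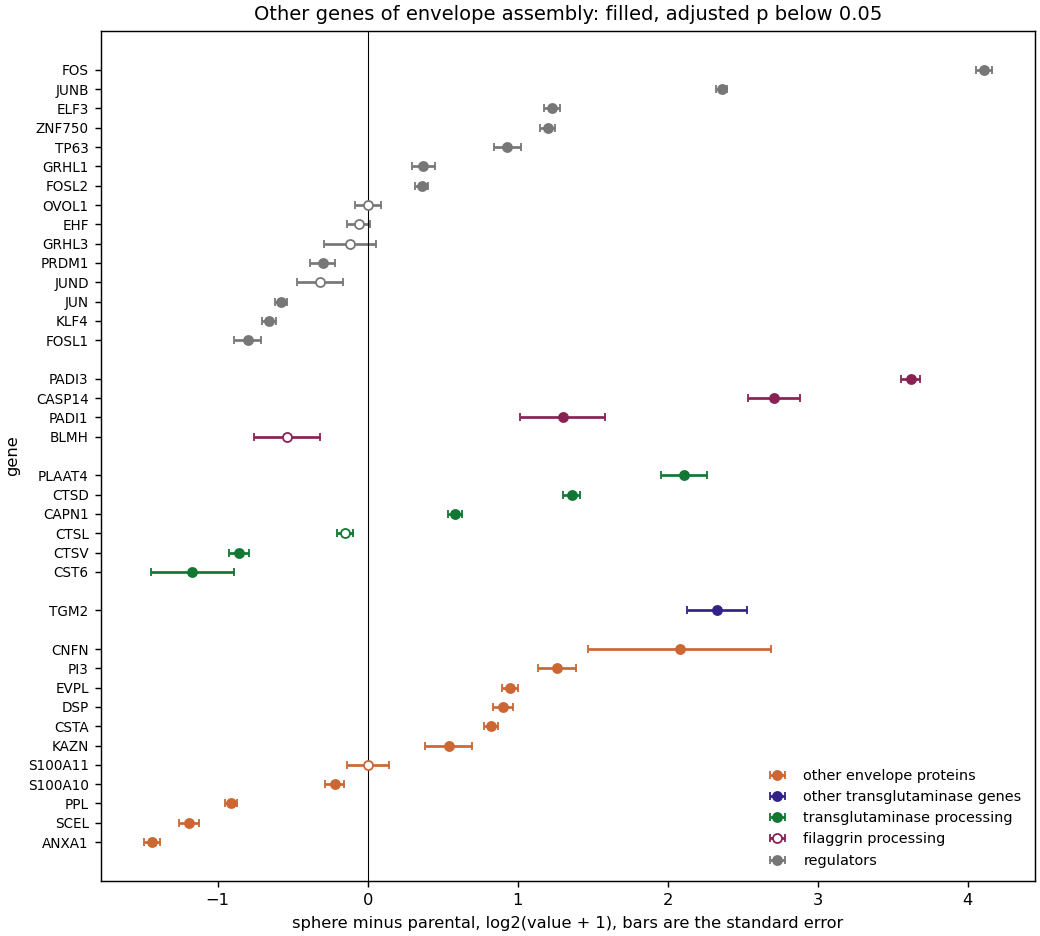
Sphere minus parental difference of log2(value + 1) with its standard error for the tested genes of 5 lists, coloured by list, with filled points at an adjusted p below 0.05. Each list with more than 1 gene has points on both sides of 0, from -1.44 for ANXA1 to 4.11 for FOS.

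Genes with the most similar pattern were sought for SPRR1A, IVL and TGM1 among 10266 other tested genes whose mean reached 5 units, by the Euclidean distance between log2(value + 1) profiles over the 6 libraries, each centred on its mean. The nearest to SPRR1A were CEL, AKR1B10 and KRT16, at distances of 0.283, 0.32 and 0.386. The nearest to IVL were KRT10, EHMT2 and IGFBP4, at 0.275, 0.291 and 0.293, and to TGM1 CTSS, MIR205HG and PGGHG, at 0.25, 0.251 and 0.271. For KRT16, a keratin of stressed and hyperproliferative epithelium, the means were 147 units in parental and 942 units in sphere cells, and for KRT10, a suprabasal keratin, 65.2 and 116 units. With 6 libraries in 2 groups, this likeness mostly reflects a similar size of difference between groups.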

How the data were processed

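Total RNA of 6 SCC4 libraries was read in single reads of 50 bases on a BGISEQ500 instrument, per the labels' protocols. HISAT and Bowtie2 are the tools in the submitters' processing notes, with no version, beside a mouse build, GRCm38.p6, for human gene identifiers. Annotation, quantifier and scaling are not given in any source used here. The deposited values are named TPM but are treated as a signal on a TPM-like scale, because their totals differ between libraries. After division by the step constant, totals lay between 998303 and 999200, and 91.6% to 100% of the values under 100 units were whole numbers to within 0.1. The authors may also have adjusted values within each group, since the same whole number is listed with slightly different values from gene to gene, which could make the spread between replicates too small. Its effect was not tested.

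Genes that reached 1 unit in 3 or more libraries were fitted as log2(value + 1) with limma 3.58.1 in R 4.3.3. The 2-group model had a mean trend and a two-sided test, with Benjamini-Hochberg adjustment over all tested genes and a threshold of 0.05. A rounding step was below 1 unit in parental replicates 1 and 3 and above it in every sphere library. A gene at 1 step in the sphere libraries alone therefore passed the filter. Such a gene in the parental libraries alone did not. Without this filter 52% of called genes were higher in sphere cells, against 53% with it. The fitting procedure was tested on simulated data with changes added only to genes well above 1 unit, which does not cover genes near 1 unit. Values after ± are SDs over 3 libraries. A fold change of a low gene is understated on this scale, and none is given against a group listed at 0. The members and lists were chosen with earlier results of these data known. The text names every member, up to 4 called genes of each list with the smallest p and further list genes after their values were seen. Windows of 50 bases were compared, on both strands, with all GENCODE 29 transcripts, and coding sequences were aligned with Biopython 1.88. Alternatives were a changed pseudocount, filter, scaling or variance model, a block for the replicate number, libraries left out or averaged, and paralogs summed.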

Additional observations from a re-analysis of the deposited data

How the results depend on the processing

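SPRR1A, SPRR1B and SPRR2E kept their direction and their call under all 19 alternatives run, with log2 differences of 2.72 to 3.32, 1.02 to 1.42 and 1.38 to 3.14. TGM1 kept its direction under all 19 and its call under 18, and IVL its direction under 18 and its call under 11, with the exceptions given above and, for IVL, the scaling without mitochondrially encoded genes (limma adjusted p = 0.0542). The cause was not tested. SPRR2D passed the test under none of 19, with log2 differences of -0.70 to -0.16. SPRR3 kept its call in the 14 alternatives where it was tested. The number of called members was 4 to 6 when 1 library was left out, of 7 tested without a sphere library and 9 without a parental one. The number of called genes was then 5790 to 7305, against 7315 with all libraries. The number of genes called higher, 3875, became 2285 with every library scaled to the same total and 2397 when mitochondrially encoded genes were also left out, where 42.9% of called genes were higher. With the replicate number as a block, 6176 genes and the same number of members, 6, were called. Deviations of same-numbered libraries correlated at 0.329, 0.121 and -0.273, so the numbers were not taken to pair the libraries, and not every library correlated best with its own number. Summing near-identical paralogs gave ratios of sphere to parental means of 4.22 in place of 7.41 for SPRR1A and 1.93 in place of 8.95 for SPRR2E. The rounding steps limit what can be said of genes near 1 unit.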
